A study of Mus musculus with 15 samples.

Results

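The peroxisome proliferator-activated receptor (PPAR) genes Ppara, Pparg and Ppard, the coactivator genes Ppargc1a and Ppargc1b, and the target genes Angptl4, Pdk4, Plin2 and Ucp2 were followed in cecal RNA. These 9 genes were taken from the table of gene expression by their symbols, out of 45808 rows, and all 9 passed the filter on low values, as did 11971 genes in all. RNA was sequenced from the emptied ceca of C57BL/6 mice aged 20 weeks, all labelled wild type. In 7 mice an antibiotic cocktail had been given by oral gavage 2 times a day for 30 days, which is antibiotic-induced microbiome depletion (AIMD), and in 8 mice water had been given in the same way (vehicle). Values are FPKM, read counts corrected for gene length and sequencing depth, so levels of different genes can be set side by side.

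PPARs are nuclear receptors for fatty acids and their derivatives. Each binds DNA together with a retinoid X receptor (RXR), typically at a direct repeat of the hexamer AGGTCA with a single base between the copies, and recruits coactivators once a ligand is bound. PPARα is known for the fatty acid oxidation genes of liver and other oxidative tissues, PPARγ for adipocytes and the differentiated epithelium of the large intestine, and PPARδ for its broad expression, including in the gut. PGC-1α and PGC-1β, encoded by Ppargc1a and Ppargc1b, coactivate PPARs and other receptors and promote mitochondrial gene expression. Angptl4 encodes a secreted inhibitor of lipoprotein lipase, Pdk4 a kinase that inactivates pyruvate dehydrogenase, Plin2 a coat protein of lipid droplets, and Ucp2 a carrier of the inner mitochondrial membrane.

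Stretches of DNA before the start sites of Plin2, Pdk4 and Pparg are shown because these were the members with the largest called differences among those with a promoter window in RefSeq (GRCm38.p6). A window ran from 250 bases before the start to 50 after it, 7 of the 9 genes had at least 1, and Pparg had 3, which makes 9 windows. The hexamer AGGTCA, searched on both strands and shown in capitals, was present in 3 of these 9 windows. It was present in 16.26% of all 32851 windows. The full repeat with 1 base between the copies, known as DR1, was in none of the 9 and in 13 of all windows (0.0396%). The printed stretches of Plin2 and Pdk4 run from 250 to 51 bases before the start. Both Pparg stretches are 30 bases around a hexamer and lie in exons of GENCODE M21. A match to these letters is not evidence of a bound receptor.
Plin2, chr4:86670110-86670309, minus strand: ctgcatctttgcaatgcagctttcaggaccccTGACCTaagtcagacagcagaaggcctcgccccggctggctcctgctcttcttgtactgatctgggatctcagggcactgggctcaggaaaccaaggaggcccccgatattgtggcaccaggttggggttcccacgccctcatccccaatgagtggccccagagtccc
Pdk4, chr6:5496329-5496528, minus strand: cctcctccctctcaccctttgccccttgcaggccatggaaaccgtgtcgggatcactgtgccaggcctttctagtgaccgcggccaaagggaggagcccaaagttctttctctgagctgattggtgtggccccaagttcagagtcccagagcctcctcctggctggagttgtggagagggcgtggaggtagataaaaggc
Pparg, upstream of the start at 115361144, chr6:115361104-115361133, plus strand: agccgccgcctcAGGTCAgagtcgccccgg
Pparg, at the start at 115362349, chr6:115362328-115362357, plus strand: agggacgcgaggAGGTCAagaaggggcctg
In Plin2 the hexamer read on the opposite strand and began 218 bases before the start. In Pparg it read forward and began 28 bases before the start at 115361144 and 9 bases before the start at 115362349. The windows of Ppara, Ppard, Ppargc1a and Ucp2, like that of Pdk4, held no such hexamer.

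The depth of the libraries, recovered from the steps of the FPKM values, was 8679684 to 18108594 reads on genes in AIMD mice and 4372429 to 14405959 in vehicle-treated mice, with a higher mean in AIMD mice (12408835 against 8481745 reads, two-sided exact permutation test, p = 0.0343). Of the marker lists, the epithelial one had the highest sum in every library, with a summed FPKM of 26260 to 36720 under AIMD and 24220 to 32390 under vehicle. Most of this sum was Car1, with a mean of 26470 under AIMD and 22760 under vehicle. Of the 11 epithelial markers, 2 were called higher and 2 lower (adjusted p under 0.05 in limma). Both shares were near those of all genes tested, of which 19.4% were called higher and 16.6% lower. The summed FPKM of 8 adipocyte markers was 16.1 to 30.9 under AIMD and 19.0 to 74.1 under vehicle, all 8 had a lower mean in AIMD mice, and 2 of the 5 that could be tested were called lower. Among the defining genes of adipocytes, Plin1 was at 0 in all 7 AIMD mice and in 5 of 8 vehicle-treated mice, and Lep was at 0 in 6 and 5 mice, respectively. Adipoq was at 0 in 1 AIMD mouse and in no vehicle-treated mouse, ran from 0 to 1.63 under AIMD and from 0.156 to 5.21 under vehicle, and was called lower (log2 fold change -1.44, limma adjusted p = 0.0215). Much of the adipocyte sum was Cidec, with a mean of 14.5 under AIMD and 15.3 under vehicle, and Fabp4, at 4.60 and 7.13. Both were above 0 in every mouse and were not called (0.02 and -0.42). The summed FPKM of 6 smooth muscle markers was 213 to 813 under AIMD and 517 to 3018 under vehicle, and that of 5 markers of enteric neurons and glia was 2.15 to 3.26 and 3.19 to 54.7. All markers of both lists had a lower mean in AIMD mice. Of the smooth muscle markers, 1 of 6 tested was called lower, a share near that of all genes. Of the neuron and glia markers all 3 tested were called lower. Leukocyte markers summed to 6.34 to 23.3 against 9.31 to 23.4, and endothelial markers to 3.74 to 5.58 against 3.91 to 7.39. Vehicle replicate 8 stood apart, with the fewest reads and the highest sums for adipocytes, smooth muscle and neurons and glia. Of its adipocyte sum of 74.1, Cidec was 32.8 and Fabp4 15.5. Some of the differences in which vehicle replicate 8 was the extreme mouse are therefore also given without it. The part of these markers and of depth in the results was not tested.

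The transcripts of Ppara and Pparg were higher in AIMD mice, whereas those of Pdk4, Plin2 and Angptl4 were lower. The other 4 genes, Ppard, Ppargc1a, Ppargc1b and Ucp2, were not called. A gene was called when its adjusted p was under 0.05 in limma with Benjamini–Hochberg adjustment over all 11971 genes. Of all genes tested, 36.0% were called, 19.4% as higher and 16.6% as lower in AIMD mice, and the median log2 fold change was 0.01. The 5 called members of 9, which were chosen with results of these data known, are to be read against that background. The groups did not overlap in Pdk4 and Plin2, both lower in AIMD mice, compared with 8.57% of all genes tested without overlap, made up of 5.27% higher and 3.30% lower in AIMD mice. In whole cecal tissue, fewer cells of a type and less RNA per cell cannot be told apart.

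**Figure D1:**
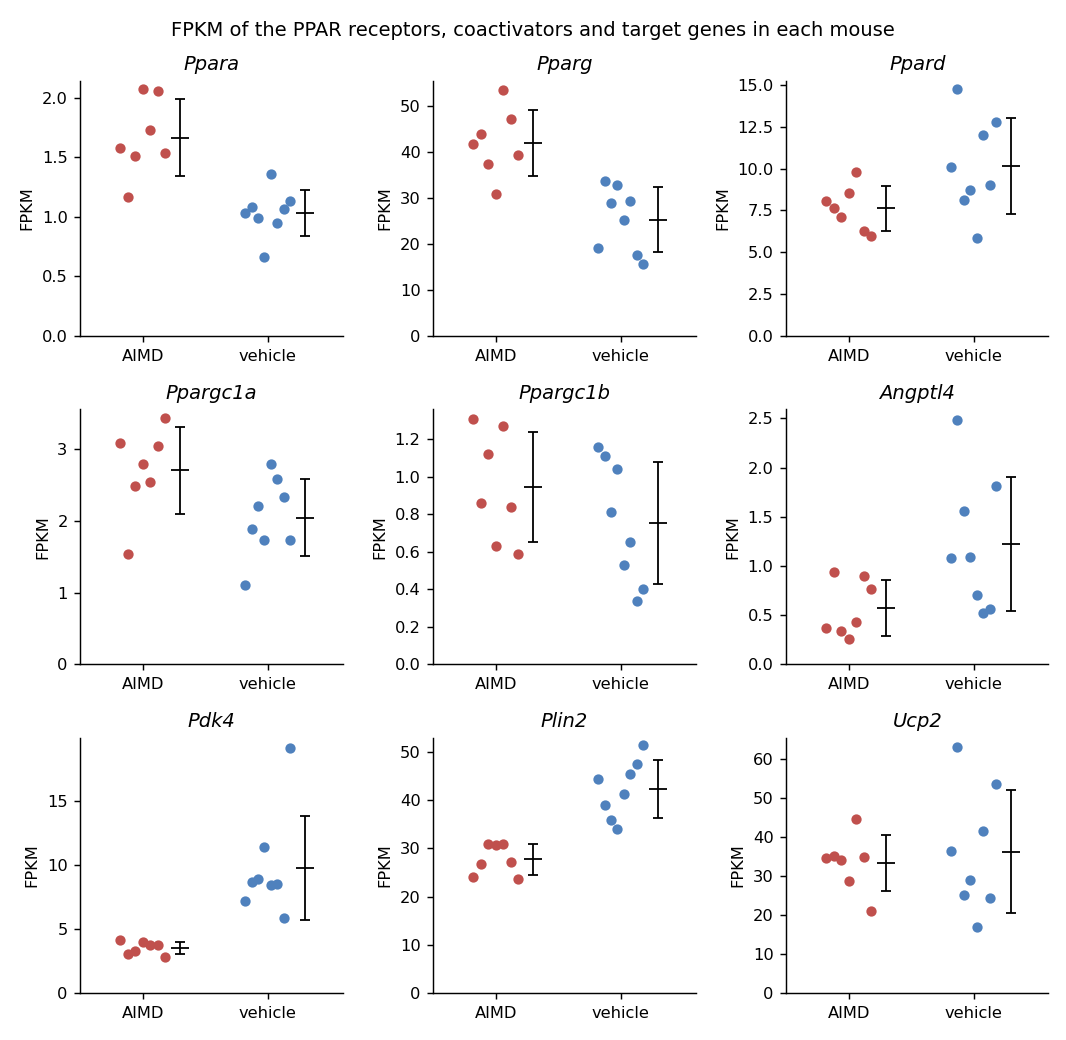
FPKM of the 9 genes in each mouse, with AIMD mice in red (n = 7) and vehicle-treated mice in blue (n = 8) and the mean and SD as a bar to the right of each group. The AIMD points of Pdk4 and Plin2 all lie below the vehicle points, 6 of 7 AIMD points of Ppara and Pparg lie above every vehicle point, and the groups of Ucp2 cover each other.

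Among the receptors, Pparg had the highest level in every mouse and Ppara the lowest. Pparg FPKM had its lowest, median and highest value at 30.8, 41.7 and 53.6 under AIMD and at 15.7, 27.1 and 33.6 under vehicle. All AIMD mice except replicate 4 were above the highest vehicle-treated mouse. The means were 42.0 ± 7.27 (SD, n = 7) and 25.3 ± 7.01 (SD, n = 8), 1.66 times as high in AIMD mice. This was a log2 fold change of 0.75 (standard error, SE, 0.17, limma adjusted p = 0.00331), and the exact permutation test over mice gave p = 0.0014. It was 0.66 without vehicle replicate 8. The gene is a plus-strand gene of chromosome 6 (115360951 to 115490399) in GRCm38, with positions throughout from GENCODE M21.

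Ppara was a low transcript, with 54 to 110 reads per AIMD mouse and 19 to 56 per vehicle-treated mouse. The FPKM had its lowest, median and highest value at 1.17, 1.58 and 2.07 under AIMD and at 0.656, 1.05 and 1.36 under vehicle. Again 6 of 7 AIMD mice, all but replicate 2, exceeded every vehicle-treated mouse. The means were 1.67 ± 0.320 (SD, n = 7) and 1.03 ± 0.198 (SD, n = 8), 1.61 times as high in AIMD mice (log2 fold change 0.49, SE 0.12, limma adjusted p = 0.00507, exact permutation p = 0.000622). Since 0.5 was added to each FPKM before the logarithm, this fold change understates that of a low gene, and 0.70 was obtained from the recovered reads with limma voom. Ppara is a plus-strand gene of chromosome 15 (85734983 to 85802819).

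Ppard was not called. Its FPKM ran from 5.96 through a median of 7.65 to 9.81 under AIMD and from 5.86 through 9.57 to 14.8 under vehicle. The AIMD values lay within the vehicle range, and 4 vehicle values exceeded all of them. The means were 7.63 ± 1.34 (SD, n = 7) and 10.2 ± 2.87 (SD, n = 8), with a log2 fold change of -0.36 (SE 0.17, unadjusted 95% interval -0.71 to -0.01, limma adjusted p = 0.0995). Without vehicle replicate 5, the lowest of its group, the value was -0.46 and the gene was called (limma adjusted p = 0.0224). In the other 14 fits that left out 1 mouse, and under the 12 other settings, Ppard was not called. Ppard is a plus-strand gene of chromosome 17 (28232700 to 28301474).

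The make-up of receptor transcripts therefore differed between groups. Pparg made up 81.6% ± 3.49 of the summed receptor FPKM under AIMD (SD, n = 7) and 68.6% ± 8.62 under vehicle (SD, n = 8) (exact permutation p = 0.00202, 0.0029 after adjustment over the 8 shares compared). Ppard made up 15.1% ± 2.94 and 28.4% ± 8.26, respectively (exact permutation p = 0.00124, adjusted 0.00249). The shares of a mouse add up to the whole, so a higher Pparg lowers the share of Ppard. Their tests are thus not independent, and the level of Ppard itself was not called. Without vehicle replicate 8, the vehicle shares of Pparg and Ppard were 70.8% ± 6.34 and 26.3% ± 6.16 (SD, n = 7; exact permutation p = 0.00233 and 0.00117, adjusted 0.00373 and 0.00233). The share of Ppara was 3.32% ± 0.880 and 2.98% ± 0.966, a difference that was not detectable (exact permutation p = 0.502). The sum itself was 51.3 ± 7.68 under AIMD and 36.5 ± 7.72 under vehicle (exact permutation p = 0.00311).

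Rxra, the RXR partner with the highest level here, was called higher, as Pparg and Ppara were. Its FPKM was 13.01 ± 2.76 under AIMD (SD, n = 7) and 7.42 ± 2.31 under vehicle (SD, n = 8), a log2 fold change of 0.80 (SE 0.17, limma adjusted p = 0.00202). Rxrb was at 4.02 ± 1.13 and 3.85 ± 0.957 and was not called (log2 fold change 0.04, 95% interval -0.31 to 0.40), and Rxrg was at or near 0. Of 18 partner and cofactor genes, 16 could be tested, 3 were called higher (18.75%, against 19.4% of all genes tested) and none lower, with a median log2 fold change of -0.05. The share called higher was thus near that of all genes. Beside Rxra, the called genes were Sirt1, a deacetylase that acts on PGC-1α (0.46, adjusted p = 0.0338), and Med1, the Mediator subunit that contacts nuclear receptors (0.32, adjusted p = 0.0272). The calls of this list fell to 1 without AIMD replicate 5 or without AIMD replicate 7.

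**Figure D2:**
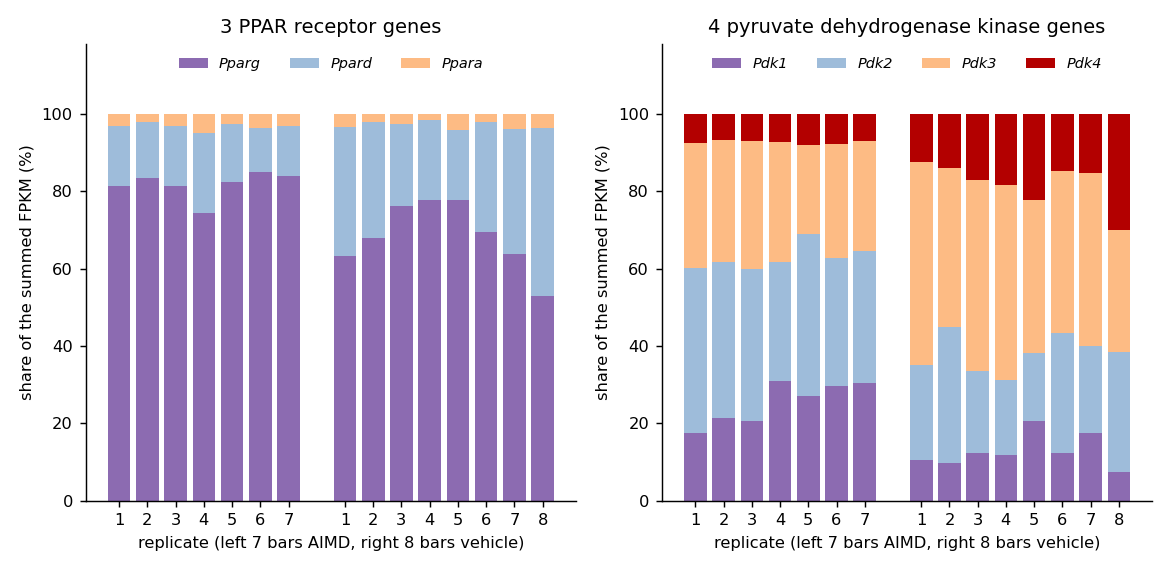
Share of each gene in the summed FPKM of the 3 PPAR receptor genes (left) and of the 4 pyruvate dehydrogenase kinase genes (right), in percent, with 1 bar per mouse, AIMD mice at the left and vehicle-treated mice at the right of each panel. The Pdk4 share was 6.84 to 8.00% under AIMD and 12.6 to 30.1% under vehicle, and the Ppard share was largest in vehicle replicate 8.

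Neither coactivator gene was called. Ppargc1a FPKM ran from 1.54 through a median of 2.79 to 3.44 under AIMD and from 1.11 through 2.05 to 2.79 under vehicle. The groups overlapped, and 3 AIMD values exceeded all vehicle values. The means were 2.71 ± 0.610 (SD, n = 7) and 2.05 ± 0.540 (SD, n = 8), with a log2 fold change of 0.34 (SE 0.16, 95% interval -0.01 to 0.68, limma adjusted p = 0.114). Without AIMD replicate 2, its lowest mouse, the value was 0.44 and the gene was called (limma adjusted p = 0.0331). It was not called in the other 14 fits that left out 1 mouse or under the 12 other settings. Ppargc1a is a minus-strand gene of chromosome 5 (51454250 to 51567726).

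Ppargc1b was among the lowest transcripts of the set, with 21 to 91 reads per AIMD mouse and 7 to 60 per vehicle-treated mouse. Its FPKM ran from 0.587 through a median of 0.856 to 1.31 under AIMD and from 0.344 through 0.729 to 1.16 under vehicle, so the groups overlapped over most of their range. The means were 0.944 ± 0.292 (SD, n = 7) and 0.756 ± 0.322 (SD, n = 8). The log2 fold change was 0.22 (SE 0.17, 95% interval -0.15 to 0.59, limma adjusted p = 0.344). Ppargc1b is a minus-strand gene of chromosome 18 (61298136 to 61400431).

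The members were also set against a clock score. The clock score of a mouse was the mean log2 value of Arntl, Npas2, Clock and Nfil3 minus that of Dbp, Tef, Nr1d1, Nr1d2, Per2, Per3, Ciart and Hlf, circadian genes of opposite phase. It was 1.64 to 2.098 in 3 AIMD mice and 2.25 to 2.31 in 4 vehicle-treated mice, and it was below 0 in the other mice, at -0.67 to -0.15 in 4 AIMD mice and -1.17 to -0.54 in 4 vehicle-treated mice. These levels were read from the data, and the labels used here do not give the time of sacrifice. The study's own model had that time as a factor, and whether the levels match it is not known. The mice above 0 were AIMD replicates 1 to 3 and vehicle replicates 1 to 4. In vehicle-treated mice Ppargc1b FPKM was 0.812 to 1.16 above 0 and 0.344 to 0.647 below 0, without overlap. In AIMD mice it was 0.856 to 1.31 above 0 and 0.587 to 1.27 below 0, with overlap. The share of all genes without overlap at this split is not given here, so the separation in vehicle-treated mice is only a description. With treatment in the model, Ppargc1b was the only member called for clock level (log2 difference 0.47, SE 0.13, limma adjusted p = 0.0289). A call in 1 of 9 members is below the 16.4% of all genes tested that were called. Ppara had a difference of -0.23 (adjusted p = 0.138) and Ppargc1a of -0.33 (adjusted p = 0.107). With clock level in the model, the treatment differences of Ppara, Pparg, Pdk4, Plin2 and Angptl4 were still called, and those of the other 4 members were still not called. No gene was called for an interaction of treatment and clock level in limma, while 4.46% of genes had an unadjusted p under 0.05, and the members had unadjusted p from 0.157 to 0.904.

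**Figure D3:**
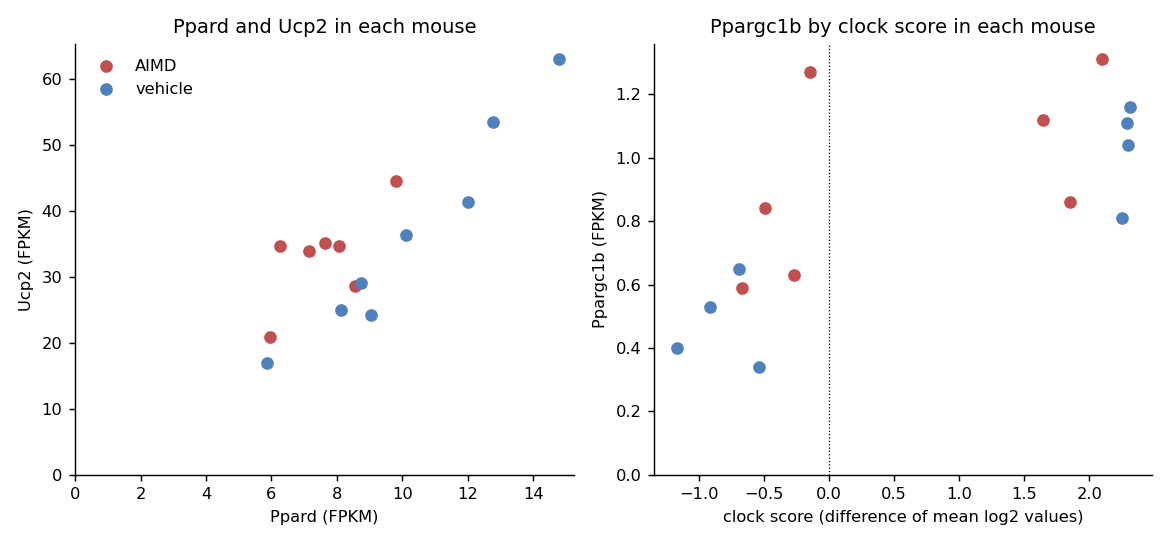
Left, Ucp2 FPKM against Ppard FPKM in each mouse, and right, Ppargc1b FPKM against the clock score, in log2 units with 0 as a dotted line, AIMD mice in red (n = 7) and vehicle-treated mice in blue (n = 8). Ucp2 and Ppard lie closer to a line in vehicle-treated mice (r = 0.98 for log2 values) than in AIMD mice (r = 0.66 for log2 values). The 4 vehicle-treated mice above a clock score of 0 all have more Ppargc1b than the 4 below it.

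Pdk4 had the largest difference of the 9 genes. The FPKM had its lowest, median and highest value at 2.79, 3.71 and 4.09 under AIMD and at 5.87, 8.54 and 19.1 under vehicle. Every AIMD mouse was below every vehicle-treated mouse, and the AIMD values lay close together. The means were 3.52 ± 0.483 (SD, n = 7) and 9.74 ± 4.09 (SD, n = 8), 2.77 times as high under vehicle. On the log2 scale the fold change was -1.28 (SE 0.18, limma adjusted p = 7.14e-05), with an exact permutation p of 0.000311. The highest value was that of vehicle replicate 8, the library with the highest sums of adipocyte and smooth muscle markers, and without it the log2 fold change was -1.14 (limma adjusted p = 1.28e-05) and the groups were still apart, with the other vehicle-treated mice at 5.87 to 11.4. Pdk4 is a minus-strand gene of chromosome 6 (5483351 to 5496309).

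The 4 kinases of pyruvate dehydrogenase differed in direction. Pdk1, a kinase gene known as a target of hypoxia signaling, was at 12.02 ± 2.74 under AIMD (SD, n = 7) and 6.48 ± 0.959 under vehicle (SD, n = 8), with no overlap (log2 fold change 0.83, SE 0.14, limma adjusted p = 0.000261). Pdk3 was lower in AIMD mice, at 14.2 ± 2.55 against 23.5 ± 5.77 (log2 fold change -0.68, limma adjusted p = 0.00376). Pdk2, at 17.8 ± 3.03 against 13.97 ± 5.35, was not called (0.42, adjusted p = 0.134). Summed FPKM of the 4 genes was 47.6 ± 5.10 under AIMD and 53.7 ± 10.3 under vehicle. The difference in means was not detectable (exact permutation p = 0.176). Within that sum Pdk4 made up 7.37% ± 0.423 under AIMD and 18.1% ± 5.70 under vehicle, and Pdk1 25.4% ± 5.49 and 12.7% ± 4.25 (exact permutation p = 0.000311 and 0.000622, both 0.00166 after adjustment over the 8 shares). Without vehicle replicate 8, Pdk4 made up 16.3% ± 3.23 under vehicle (SD, n = 7; exact permutation p = 0.000583, adjusted 0.00233). The phosphatase genes Pdp1 and Pdp2, which oppose the kinases, were not called (log2 fold changes 0.27 and 0.26).

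Plin2 also separated the groups. The FPKM had its lowest, median and highest value at 23.6, 27.3 and 30.9 under AIMD and at 34.0, 42.8 and 51.5 under vehicle. All 7 AIMD mice were below all 8 vehicle-treated mice. The means were 27.8 ± 3.17 (SD, n = 7) and 42.4 ± 5.99 (SD, n = 8), 1.53 times as high in vehicle-treated mice (log2 fold change -0.60, SE 0.11, limma adjusted p = 0.000754, exact permutation p = 0.000311). It was -0.55 without vehicle replicate 8. Plin2 shares 2.57% of its 50-base windows with another gene, and is a minus-strand gene of chromosome 4 (86648386 to 86670060).

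Plin3, the perilipin with the highest level, was at 52.3 ± 7.78 under AIMD (SD, n = 7) and 58.6 ± 9.23 under vehicle (SD, n = 8) and was not called (log2 fold change -0.16, 95% interval -0.42 to 0.10, limma adjusted p = 0.330). Plin2 made up 34.6% ± 3.15 of the summed FPKM of the 5 perilipins under AIMD and 41.6% ± 3.85 under vehicle (exact permutation p = 0.00218, adjusted 0.0029). Plin1, Plin4 and Plin5 were too low to be tested. The mean of Plin4 was 0.354 under AIMD and 0.708 under vehicle, and that of Plin5 was 0.122 and 0.314. Hence the Plin2 and Plin3 transcripts were nearly all of the perilipin signal, while Plin1, the perilipin that marks adipocytes, was at or near 0 in both groups. It was at 0 in all 7 AIMD mice and in 5 of 8 vehicle-treated mice.

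Angptl4 was low, with 7 to 39 reads per AIMD mouse and 12 to 110 per vehicle-treated mouse. The FPKM had its lowest, median and highest value at 0.256, 0.431 and 0.938 under AIMD and at 0.524, 1.09 and 2.48 under vehicle. The groups overlapped, with 4 AIMD mice below all vehicle-treated mice. The means were 0.571 ± 0.289 (SD, n = 7) and 1.23 ± 0.683 (SD, n = 8), 2.15 times as high under vehicle. On the log2 scale the fold change was -0.64 (SE 0.23, limma adjusted p = 0.0396), and -1.12 from the recovered reads with limma voom. This call was the least firm of the 5: the exact permutation test gave p = 0.0255, adjusted to 0.0666, and the limma call was lost in 9 of the 15 fits that left out 1 mouse. These were the fits without AIMD replicate 1, 3, 4 or 5 and without vehicle replicate 1, 2, 3, 4 or 8, with log2 fold changes of -0.64 to -0.51 and limma adjusted p of 0.0536 to 0.0777. Angptl4 is a minus-strand gene of chromosome 17 (33773750 to 33781830).

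No relative of Angptl4 was called with all 15 mice. Angptl6 was at 0.508 ± 0.265 under AIMD (SD, n = 7) and 1.12 ± 0.756 under vehicle (SD, n = 8) and was not called (log2 fold change -0.61, limma adjusted p = 0.0511), but was called without vehicle replicate 8 (-0.68, adjusted p = 0.0331). Angptl2 was at 0.608 ± 0.324 and 1.10 ± 0.938, also not called (-0.40, adjusted p = 0.269), nor without vehicle replicate 8, its highest mouse (-0.21, adjusted p = 0.478). Angptl1 (0.235 against 0.380) and Angptl7 (0.568 against 0.314) were too low to be tested. Angptl5 and Angptl8 have no row under these symbols. Lpl, which encodes the lipase that Angptl4 inhibits, was lower in AIMD mice as well (4.94 ± 0.946 against 13.1 ± 3.03, log2 fold change -1.31, limma adjusted p = 1.24e-05), with no overlap.

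Ucp2 did not differ in a detectable way. Its FPKM ran from 20.9 through a median of 34.7 to 44.6 under AIMD and from 16.9 through 32.7 to 63.1 under vehicle. The AIMD mice lay inside the vehicle range. The means were 33.2 ± 7.20 (SD, n = 7) and 36.2 ± 15.8 (SD, n = 8), with a log2 fold change of -0.04 (SE 0.24, 95% interval -0.54 to 0.47, limma adjusted p = 0.919). The interval leaves room for a change in either direction. Ucp1 and Ucp3 were at or near 0 in all mice. Ucp2 is a plus-strand gene of chromosome 7 (100493337 to 100502020), and overlaps an exon of Dnajb13 on the other strand, which stranded libraries can tell apart only if the counting used strand.

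Ucp2 and Ppard varied together from mouse to mouse, most closely in vehicle-treated mice. After each group was centred on its mean, the log2 values of Ppard and Ucp2 had a Pearson r of 0.91 and a Spearman rho of 0.87 over 15 mice. Among the 36 pairs of members this was the only one with an absolute r of at least 0.7, and the next had 0.60, a negative relation of Pparg and Plin2. Without vehicle replicates 2 and 5, the mice farthest from the median of Ppard, r was 0.81. Within the groups r was 0.98 and rho 0.93 in the 8 vehicle-treated mice, and r was 0.66 and rho 0.46 in the 7 AIMD mice, a difference that was not tested. Ucp2 was the third closest gene to Ppard among the tested genes ranked, after Gpi1 (r = 0.91), a glycolytic enzyme gene, and Rfx1 (r = 0.91), a transcription factor gene. Symbols of predicted genes (Gm and a number, or ending in Rik) were left out of the ranking for each receptor. The genes closest to Pparg were Scfd1 (0.94), Supv3l1 (0.92) and Map7 (0.88), and those closest to Ppara were Ccbl1 (0.85), Spint1 (0.81) and Lefty1 (0.79). Each is among the highest of a ranking drawn from the 11971 tested genes. These correlations set values from the same library of each mouse side by side, so they are descriptions without a test.

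Beyond the 9 genes, PPAR target genes in lists of fatty acid uptake, mitochondrial and peroxisomal oxidation, and lipid droplets were more often lower than higher in AIMD mice. Of 52 such genes, 40 could be tested, 17 were called lower (42.5%), 3 were called higher (7.50%) and 20 were not called. Of all genes tested, 16.6% were called lower and 19.4% higher. The median log2 fold change of the 40 genes was -0.32, and 27 were negative. Without vehicle replicate 8 the counts were again 17 and 3. The lists were drawn up with earlier results of these data known, so the counts are a description.

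Uptake, binding and activation genes were lower in 4 and higher in 1 of 10 tested. Lpl had the largest difference, followed by the fatty acid transporter genes Slc27a4 (42.8 ± 5.55 against 90.4 ± 21.0, log2 fold change -1.05, limma adjusted p = 5.99e-05) and Slc27a1 (-0.71, adjusted p = 0.00148). Both were without overlap between groups. Fabp2, the intestinal fatty acid-binding protein gene, went the other way, at 8998 ± 1589 under AIMD (SD, n = 7) and 5605 ± 2398 under vehicle (SD, n = 8) (0.77, adjusted p = 0.0199).

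Mitochondrial oxidation and ketogenesis genes were lower in 6 and higher in 1 of 12 tested. Hadhb, of the mitochondrial trifunctional protein, was at 10.54 ± 2.97 under AIMD (SD, n = 7) and 21.5 ± 4.80 under vehicle (SD, n = 8), a log2 difference of -1.01 (limma adjusted p = 0.000373). Hadha, its partner in the same complex, was not called (0.16). Hadh, the short-chain hydroxyacyl-CoA dehydrogenase, had a log2 fold change of -0.86 (adjusted p = 0.000929), and of -0.98 without vehicle replicate 8, its lowest vehicle-treated mouse (adjusted p = 3.45e-05). Of the 50-base windows of Hadhb, 19.71% also occur in other genes. Etfdh, which passes electrons from oxidation to ubiquinone, was higher without overlap (0.70, adjusted p = 0.000917).

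Of 8 peroxisomal genes tested, 3 were called lower and none higher. Acaa1b and Acaa1a, which encode peroxisomal thiolases, had log2 fold changes of -1.43 and -0.63 (limma adjusted p = 0.000286 and 0.00212), and share 30.48% and 12.92% of their 50-base windows with other genes, chiefly each other, so their separate values are uncertain. Cat, which encodes catalase, had -0.39 (adjusted p = 0.0267).

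Droplet, lipolysis and acyl-CoA hydrolysis genes were lower in 4 and higher in 1 of 10 tested. Mgll, the monoacylglycerol lipase, had the largest fall of the 40 genes, at 5.56 ± 0.678 under AIMD (SD, n = 7) and 19.5 ± 5.71 under vehicle (SD, n = 8), with no overlap (log2 fold change -1.67, limma adjusted p = 4.08e-06). Acot1, an acyl-CoA thioesterase gene, and G0s2, an inhibitor of adipose triglyceride lipase, had -1.48 and -0.77 (adjusted p = 0.00605 and 0.0443), and G0s2 was not called by the exact permutation test (adjusted p = 0.0789) or without vehicle replicate 8 (-0.66, limma adjusted p = 0.0738). Acot1 shares 19.17% of its windows, chiefly with Acot2. Creb3l3, a transcription factor gene that acts with PPARα in liver, was higher (23.97 ± 8.22 against 11.2 ± 7.85, log2 fold change 1.22, adjusted p = 0.00758). Without vehicle replicate 8, the highest vehicle-treated mouse, it was 1.44 (adjusted p = 0.000633).

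**Figure D4:**
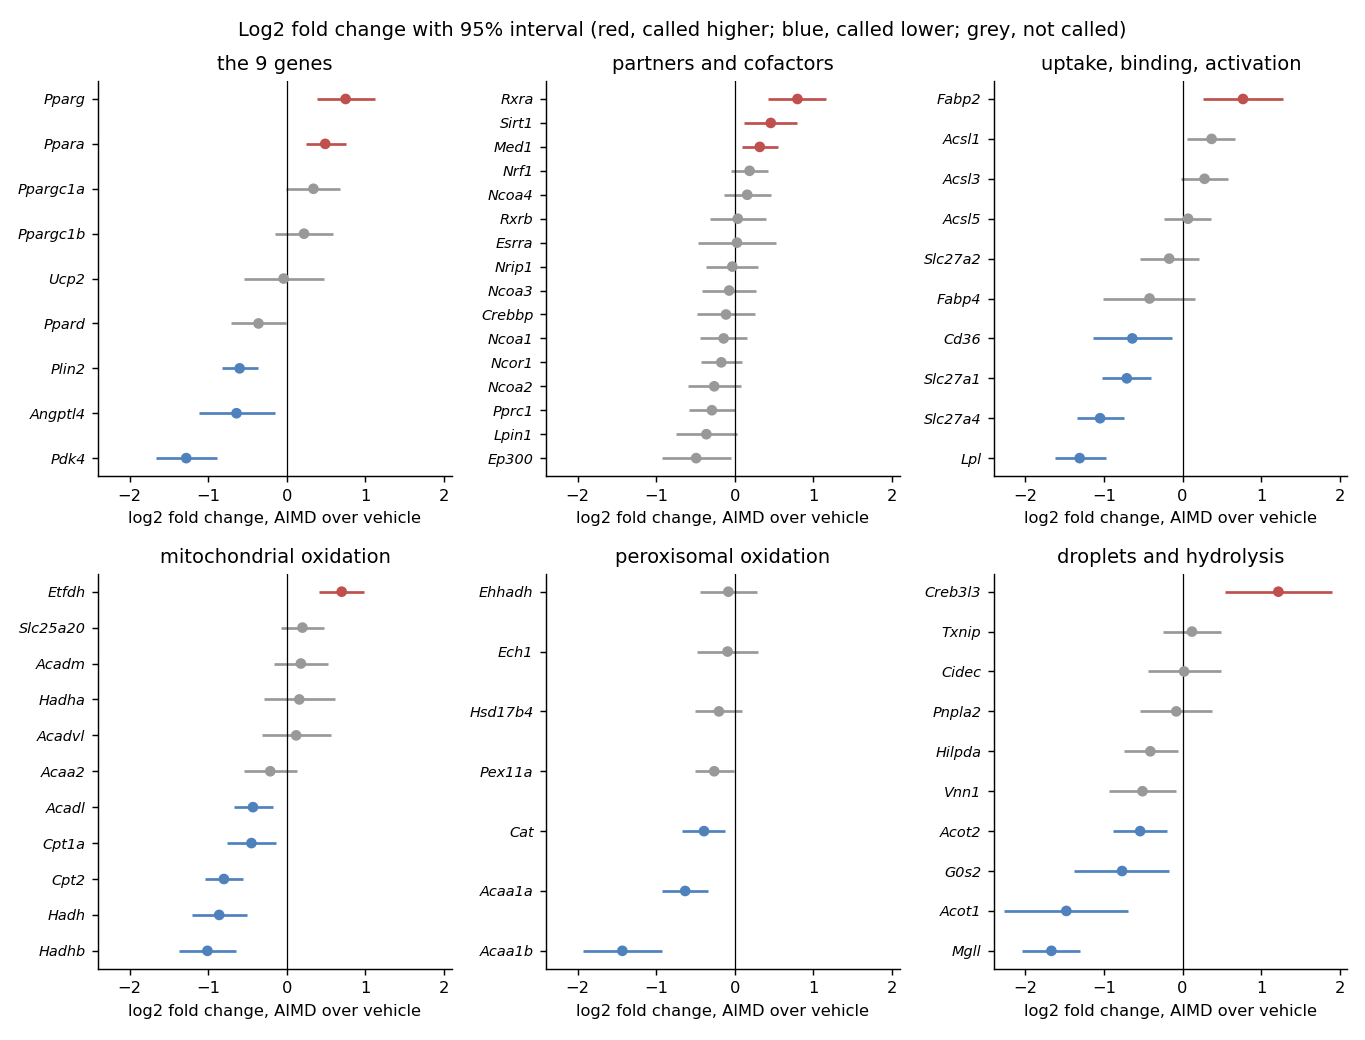
Log2 fold change of AIMD over vehicle-treated mice with its unadjusted 95% interval for the 9 genes and for tested partners, cofactors and target genes (7 and 8 mice). Called genes are red when higher and blue when lower, and the target genes plotted run from -1.67 in Mgll to 1.22 in Creb3l3.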

How the data were processed

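Cecal RNA of 7 AIMD and 8 vehicle-treated mice was sequenced from poly-A selected, stranded libraries. Per the labels and the methods of the study, STAR aligned the reads to GRCm38, featureCounts assigned them to GENCODE genes, and the authors deposited FPKM, with 1 column per mouse. Their own model had treatment and time of sacrifice as factors. Tool versions, the scaling to FPKM and the strand setting of the counting are not given in the sources used here.

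Rows with a repeated symbol (4) were left out. Each mouse was scaled by a size factor (median of ratios, 1.01 throughout) and log2(FPKM + 0.5) was taken. The 11971 genes that reached an FPKM of 0.5 in 7 or more mice were compared, AIMD against vehicle, by limma 3.58.1 in R 4.3.3 (lmFit, eBayes with trend), with Benjamini–Hochberg adjustment and a two-sided threshold of 0.05. A mouse was 1 replicate. Printed levels are deposited FPKM. Exact permutation tests used all 6435 splits of the mice, with a smallest p of 0.000155. Whole reads were recovered for 100% of 24279 genes (tolerance 0.05 reads) and gave the depth, which limits the precision of low genes. For 68.72% of the genes the annotation length gave whole reads. For the others a length was searched that made them whole, so their reads may be off by a constant factor. Shared reads were judged by 50-base windows of GENCODE M21 transcripts. Python 3.11.15 (pandas 2.3.3, numpy 2.4.6, scipy 1.17.1) served for all else and matplotlib 3.10.9 for plots, and the scripts were tested on simulated data.

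The 9 genes, the gene lists and the tests were chosen with earlier results of these data known. Named genes are the 9 members, their families, the RXR genes, up to 3 called genes with the largest rise and 3 with the largest fall of each list, and the 3 genes closest to each receptor. The last ranking left out symbols of predicted genes (Gm and a number, or ending in Rik). Certain genes of the lists are not reported or plotted here but are kept in all counts. Hadha was named after its values were seen. Alternatives were other scalings, pseudocounts, filters, limma voom on recovered reads, the exact permutation test, a clock covariate, a replicate block and each mouse left out in turn. The 2-level clock term and its interaction, the unblocked fit of the 14 mice of the block, the pooled target lists, and the shares and other named genes without vehicle replicate 8 were added after the data were seen.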

Additional observations from a re-analysis of the deposited data

Results flagged for a closer look

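In 36 genes, made up of the 9 members, tested genes of their families, Rxra, Rxrb and the named genes of the partner and target lists, the highest and lowest mouse of each group was set against its neighbors by Dixon's test, 72 groups in all, of which chance flags about 5%. It flagged 6, all in vehicle-treated mice. Vehicle replicate 8, the least deep library and the one with the highest adipocyte, smooth muscle and neuron and glia marker sums, was the highest in Pdk4 (19.1, next 11.4), in Angptl2 (3.20, next 1.36) and in Creb3l3 (28.3, next 15.5), and the lowest in Hadh (124, next 218). Vehicle replicate 1 was the highest in Angptl6 (2.75, next 1.45) and in Slc27a1 (2.82, next 2.01), all in FPKM.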

How the results depend on the processing

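Ppara, Pparg, Pdk4 and Plin2 kept their direction and their call under all 12 other settings and without each mouse in turn. Leaving out each of the 15 mice in turn gave log2 fold changes of 0.44 to 0.55 in Ppara, 0.66 to 0.82 in Pparg, -1.37 to -1.14 in Pdk4, -0.64 to -0.55 in Plin2, -0.73 to -0.51 in Angptl4, -0.46 to -0.28 in Ppard, 0.25 to 0.44 in Ppargc1a, 0.14 to 0.28 in Ppargc1b and -0.17 to 0.09 in Ucp2. Angptl4 lost its call without a filter (-0.64, limma adjusted p = 0.083) and in the exact permutation test (-0.64, adjusted p = 0.0666). The direction of Ucp2, which was never called, turned without AIMD replicate 7 (0.07) and without vehicle replicates 2 (0.09), 6 (0.01) or 8 (0.06). Without vehicle replicate 8, log2 fold changes were 0.88 in Rxra, 0.77 in Pdk1, -1.41 in Lpl and -0.97 in Slc27a4. They were -1.08 in Hadhb, 0.62 in Etfdh, -1.28 in Acaa1b and -1.62 in Acot1, and all these genes were still called. The vehicle shares of Plin2 and Pdk1 were then 40.5% and 13.5% (exact permutation, adjusted p = 0.00466 and 0.00233).

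The labels state no pairing of mice by replicate number. The deviations of same-numbered mice correlated from -0.35 to 0.43, which cannot exclude a pairing. With a replicate block over 14 mice, Angptl4 was not called (-0.56, adjusted p = 0.0609), Ucp2 was at 0.06 and 2388 genes were called higher and 2258 lower. The same 14 mice without the block gave -0.56 (adjusted p = 0.0641), 0.06, 2407 and 2231. Beside those 14 mice without it, the block changed no call of a member.

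Of partners and cofactors, 1 was called lower with the clock score, the clock level or the block, against none. Of uptake genes, 2 were called higher with the clock score, the clock level or limma voom, and 0 without a filter, against 1, and of mitochondrial genes 2 with quantile normalization, against 1. Each mouse left out in turn gave 2 to 3 members called higher and 2 to 4 lower, 1 to 3 partners higher and 0 to 1 lower, 1 to 2 uptake genes higher and 3 to 4 lower, 1 mitochondrial gene higher and 5 to 6 lower, 2 to 4 peroxisomal genes lower, 1 droplet gene higher and 3 to 5 lower, 14 to 17 of all target genes lower, and 1894 to 2398 of all genes higher and 1602 to 2208 lower. The partners called higher were 1 without AIMD replicate 5 or 7, a partner was called lower without AIMD replicate 4 or vehicle replicate 2, and 2 uptake genes were called higher without AIMD replicate 3 or vehicle replicate 5 or 6. The cause of these differences was not tested. Ppargc1b and Angptl4 had no value with a filter at FPKM of 1. Counts of reads limit Ppargc1b, Angptl4 and Ppara most.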
